A study of Mus musculus with 10 samples.

Results

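The Prader-Willi imprinted cluster was followed here through 6 genes, Snrpn, Ndn, Magel2, Mkrn3, Peg12 and Ube3a. Its members were all probe sets of the array whose gene symbol is exactly 1 of these names, which gave 18 of the 45101 probe sets. Of the 18, 8 read Ndn, 6 read Ube3a and 1 each reads Snrpn, Magel2, Mkrn3 and Peg12. Total RNA was measured on Affymetrix GeneChip arrays in 3 groups of sorted mouse cells, 10 arrays in all. The AG-haESC group holds 5 androgenetic haploid embryonic stem cell lines, whose genome comes from the father alone. All 5 are of C57BL/6J background. The lines AGH-OG-1 to AGH-OG-4 carry an Oct4-EGFP transgene and AGH-EG-1 an Actin-EGFP transgene, at passages 12 to 15, with 1 array a line. E14 is a diploid male embryonic stem cell line, wild type and of 129/Sv background, measured on 3 arrays at passage 17. MEF are wild-type embryonic fibroblasts of B6D2F1 background, of male embryonic origin at day 13.5, measured at passage 2 on 2 arrays. The E14 and MEF arrays are labelled as biological replicates, and nothing says how these were separated, so their spread may be partly technical. Cells were stained with Hoechst 33342 and the 1n peak was sorted for AG-haESC, the 2n peak for E14 and MEF. AG-haESC grew on feeder cells with CHIR99021 and PD0325901, while the labels name no medium for E14 and MEF. Ploidy, parental origin, strain, transgene, passage and perhaps medium differ at once between AG-haESC and E14, and cannot be told apart.

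In mammals an imprinted gene is expressed from 1 parental copy, which differential DNA methylation marks in the germ line. In this cluster an imprinting centre at the Snrpn promoter is methylated on the maternal copy, and Snrpn, Ndn, Magel2, Mkrn3 and, in mice, Peg12 are expressed from the paternal copy. Loss of the paternal genes causes Prader-Willi syndrome in humans. Ube3a is the exception, since it is expressed from the maternal copy in neurons, where a long paternal transcript from the Snrpn side runs antisense to it, and from both copies in most other tissues. Loss of the maternal copy causes Angelman syndrome. All 6 genes lie on mouse chromosome 7, in the order Ube3a, Snrpn, Ndn, Magel2, Mkrn3 and Peg12 in assembly GRCm38.p6.

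The sequences just upstream of 5 of the genes are shown because methylation at CG dinucleotides carries the imprint, and because Ndn and Peg12 were higher in AG-haESC than in E14 while Mkrn3 and Ube3a on most of its probe sets were not called. Each line gives the 150 bases before an annotated start site, from RefSeq on GRCm38.p6, 5′ to 3′ on the gene's strand, with every CG in capitals.
Ndn (chr7:62348127-62348276, plus strand): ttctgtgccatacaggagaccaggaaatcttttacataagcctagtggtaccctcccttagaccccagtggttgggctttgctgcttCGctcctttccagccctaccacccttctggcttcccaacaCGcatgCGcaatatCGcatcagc
Peg12 (chr7:62464511-62464660, minus strand): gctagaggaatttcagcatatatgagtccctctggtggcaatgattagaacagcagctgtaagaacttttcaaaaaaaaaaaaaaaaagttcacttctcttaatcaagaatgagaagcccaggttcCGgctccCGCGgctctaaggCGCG
Mkrn3 (chr7:62420154-62420303, minus strand): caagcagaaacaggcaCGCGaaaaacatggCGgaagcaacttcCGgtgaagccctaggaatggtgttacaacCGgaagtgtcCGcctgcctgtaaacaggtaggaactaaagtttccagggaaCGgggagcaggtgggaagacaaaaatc
Snrpn, 1 of its 4 annotated start sites (chr7:60450178-60450327, minus strand): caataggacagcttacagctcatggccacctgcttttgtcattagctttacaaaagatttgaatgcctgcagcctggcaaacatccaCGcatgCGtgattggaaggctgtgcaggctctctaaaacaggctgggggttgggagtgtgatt
Ube3a (chr7:59228600-59228749, plus strand): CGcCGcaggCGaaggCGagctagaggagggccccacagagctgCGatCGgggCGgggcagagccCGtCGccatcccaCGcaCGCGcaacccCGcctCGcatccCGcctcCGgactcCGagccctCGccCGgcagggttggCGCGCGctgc
The Ube3a window held 22 CG dinucleotides, a number reached by 4.11% of 32817 promoter windows of the same length. The windows of Mkrn3, Peg12 and Ndn held 7, 5 and 4, against a median of 4 over all windows, and 51.3% of windows held at least as many as Ndn. The Snrpn window shown held 2, and 70.7% of windows held at least as many. Those at its other annotated start sites held 3 each, a number reached by 59.4% of windows. The Snrpn window shown is the first listed, and none of its windows was matched to the imprinting centre. The palindrome CGCATGCG, which reads the same on both strands, was searched in the 300 bases from 250 before to 50 after each start. It was chosen after the sequences were seen. It occurred once in the Ndn promoter, beginning 23 bases before the start, and once at each of the 4 Snrpn start sites, where 1.86% of 32817 promoters hold it. It was found in no window of Magel2, Mkrn3, Peg12 or Ube3a. These matches describe letters and not binding.

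Signals are MAS5 values taken to log2, so that 1 unit is a factor of 2. Each array's own median, between 55.94 and 67.96 on the linear scale, served as a mark of background. A probe set was tested if it lay above that median in at least 2 arrays, which held for 14 of the 18 members and 27505 probe sets in all. The 4 members left out, 3 of Ndn and 1 of Ube3a, read between 0.53 and 46.8 on the linear scale and lay below the median in all 10 arrays. A probe set was called when its adjusted p in limma, with Benjamini-Hochberg adjustment over the 27505, was below 0.05 and its difference at least 2-fold. Of the 14 members tested, 6 were called higher and 1 lower in AG-haESC than in E14, where 4.37% and 2.89% of all probe sets tested were called. Against MEF, 1 AG-haESC member was called higher and 5 lower, against a background of 19.2% and 20%. For E14 against MEF, 2 were called higher and 6 lower, against 19.8% and 19.1%. The member called lower in AG-haESC than in E14, Ube3a 1425206_a_at, is also 1 of the 2 called higher in E14 than in MEF. It passed the filter through the E14 arrays alone. The 3 comparisons share their arrays, and 5 of the 14 read the same Ndn transcript, so the members are not independent. The median difference of the 14 was 0.12, 0.063 and 0.0016 in these comparisons, against -0.069, 0.079 and 0.13 over all probe sets tested.

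**Figure D1:**
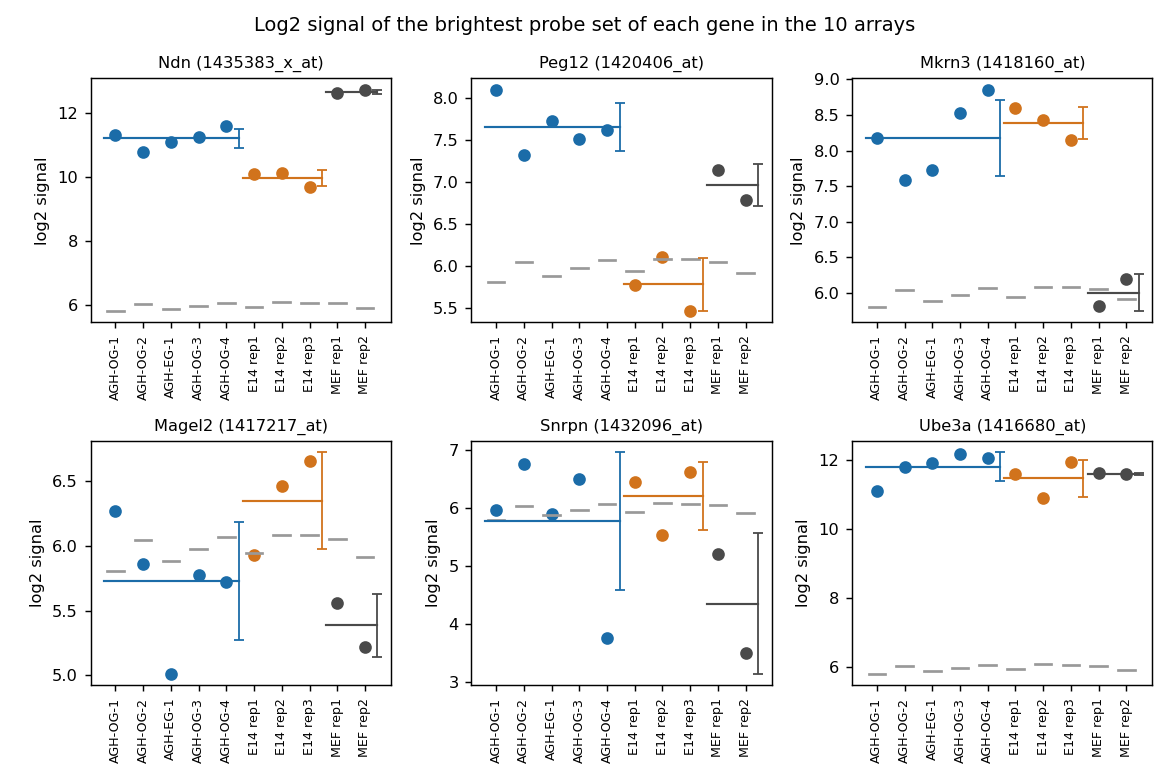
Each panel plots the log2 signal (vertical axis, with its own range per panel) of the brightest probe set of a gene in each of the 10 arrays, in blue for AG-haESC, orange for E14 and dark grey for MEF. Coloured lines are group means, error bars are 1 SD, and light grey dashes are each array's median. Ndn separates all 3 groups, Peg12 in E14 and Mkrn3 in MEF lie near the array medians, and Ube3a overlaps between groups.

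Ndn, which encodes necdin, a MAGE family protein that restrains the growth of neurons and other cells, was highest in MEF, intermediate in AG-haESC and lowest in E14. On probe set 1435383_x_at, the brightest, the log2 signal was 11.33 in AGH-OG-1, 10.79 in AGH-OG-2, 11.11 in AGH-EG-1, 11.26 in AGH-OG-3 and 11.62 in AGH-OG-4. It was 10.12, 10.14 and 9.69 in E14 replicates 1 to 3 and 12.62 and 12.73 in the MEF arrays. No array of a group overlapped with another group, and E14 replicate 3 was the lowest array and AGH-OG-4 the highest of the stem cell arrays. The AG-haESC mean of 11.22 ± 0.30 (SD, n = 5) exceeded the E14 mean of 9.98 ± 0.25 (n = 3) by 1.24 ± 0.18 (SE), 2.36-fold, with adjusted p = 0.00119 in limma. It was below the MEF mean of 12.68 ± 0.073 (n = 2) by 1.45 ± 0.21, 2.74-fold (limma adjusted p = 0.00011). E14 was below MEF by 2.69 ± 0.22, 6.47-fold (limma adjusted p = 2.36e-06).

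The other 4 bright Ndn probe sets gave the same order of groups, again with no overlap between them. Lack of overlap is a weak mark in groups this small, and its share over all 27505 probe sets tested was not counted. In E14, for example, 6 of the 14 members tested lay wholly above MEF, and only 2 of them were called. Another 6 lay wholly below and all were called, but 5 of these read Ndn. Without that share no result is drawn from these counts. Over all 5 probe sets the difference of AG-haESC minus E14 lay between 1.09 and 1.34, with SE from 0.17 to 0.21 and limma adjusted p from 0.000517 to 0.00661. AG-haESC minus MEF lay between -1.56 and -1.44, and E14 minus MEF between -2.89 and -2.53. In all 5, E14 replicate 3 held the lowest signal of the 10 arrays and AGH-OG-2 the lowest of the AG-haESC lines. Of the 5, probe set 1415923_at had the smallest difference between AG-haESC and E14, at 1.09, and it fell short of 2-fold without AGH-OG-4 (0.98, adjusted p = 0.014) or without E14 replicate 3 (0.86, adjusted p = 0.0135). The 3 dim Ndn probe sets, 1438939_x_at, 1438978_x_at and 1456575_at, lay below every array median and give no level for the gene.

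**Figure D2:**
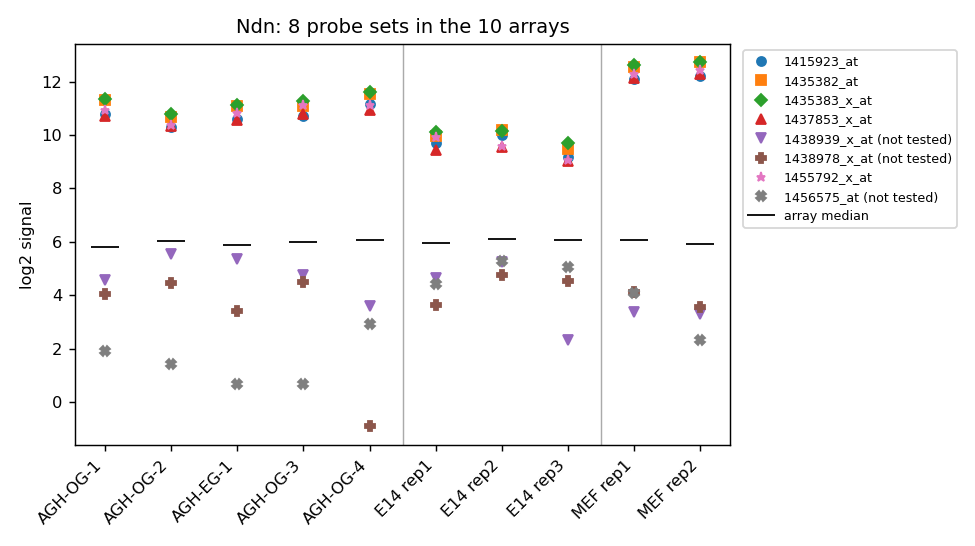
The log2 signal (vertical axis) of the 8 Ndn probe sets is plotted in each of the 10 arrays, with vertical lines between AG-haESC, E14 and MEF and black dashes for array medians. The 5 bright probe sets run together, with E14 lowest and MEF highest, and the 3 that were not tested lie below the medians throughout.

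Most of the fibroblast markers measured were also higher in AG-haESC than in E14. In bulk arrays fewer cells of a type and less RNA per cell cannot be told apart, and AG-haESC grew on feeder cells. Of 10 listed fibroblast genes 9 were measured. Of these, 6 were called higher in AG-haESC than in E14, where 4.37% of all probe sets tested were called higher. The other 3 were not called, with differences of 0.42 for Thy1, -0.72 for Pdgfrb and -0.15 for Twist1. All 9 were higher in MEF than in AG-haESC or E14. Their summed linear signal ran from 2065 in AGH-OG-1 to 7393 in AGH-OG-2, from 1008 to 1446 in E14 and from 110046 to 132964 in MEF. The collagen genes Col1a1 and Col3a1, their defining markers, stood in AG-haESC at 2.39% and 3.48% of the MEF mean signal, and over the 9 genes this share ran from 0.95% to 6.89%. In E14 it ran from 0.13% to 4.09%. The same share for the 5 bright Ndn probe sets was 34.3% to 37.5% in AG-haESC and 13.6% to 17.8% in E14. By line the fibroblast sum was 2065 in AGH-OG-1, 7393 in AGH-OG-2, 4699 in AGH-EG-1, 2411 in AGH-OG-3 and 4406 in AGH-OG-4. Its relation to the Ndn signal was not tested, and neither was a share of feeder cells in that signal. Neural markers, relevant because this cluster is best known in brain, summed to between 6661 and 9322 in AG-haESC, 9502 and 11953 in E14 and 5790 and 5904 in MEF over 7 of 9 listed genes. Stmn2 made up most of the sum in AG-haESC (mean 6757) and E14 (8697) but not in MEF (188). There Ncam1 (4626) made up most of it. Against MEF, 2 of the 7 were called higher and 2 lower in AG-haESC, beside 19.2% and 20% of all probe sets tested. In E14 4 were called higher and 2 lower, beside 19.8% and 19.1%. Of their defining markers, Sox1 was above the array median in 1 of 5 AG-haESC arrays and in all 3 E14 arrays, and Stmn2 was above it in all 10 arrays. Of the 7, Elavl3 was called lower in AG-haESC than in E14 and none was called higher, beside 2.89% and 4.37% of all probe sets tested.

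**Figure D3:**
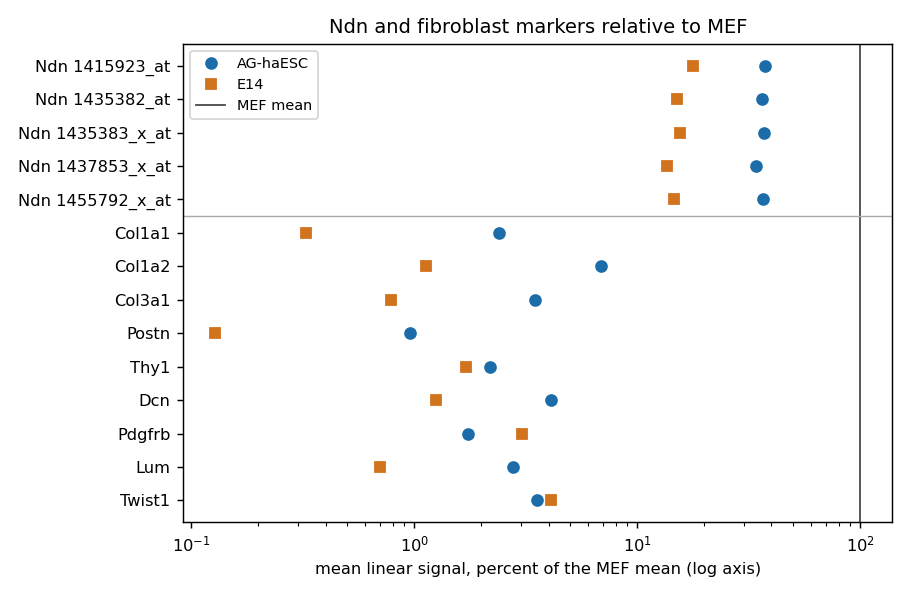
The mean linear signal in AG-haESC (blue circles) and E14 (orange squares) is plotted as a percentage of the MEF mean on a log axis, for the 5 bright Ndn probe sets and 9 fibroblast markers. Ndn lies between 34.3% and 37.5% in AG-haESC, above all 9 fibroblast markers, of which the highest is 6.89%.

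Peg12, also named Frat3, belongs to the Frat family, whose members bind the kinase GSK3 and promote WNT signalling. It was higher in AG-haESC than in E14, where its signal was near background. Its 1 probe set, 1420406_at, read 8.10 in AGH-OG-1, 7.33 in AGH-OG-2, 7.72 in AGH-EG-1, 7.51 in AGH-OG-3 and 7.62 in AGH-OG-4. It read 5.78, 6.10 and 5.46 in E14 replicates 1 to 3 and 7.14 and 6.79 in the MEF arrays. All 5 AG-haESC lines lay above both MEF arrays, and both lay above all E14 arrays. Of the E14 arrays, replicate 2 alone lay above its own median, so the E14 level and the fold rest on signals near background. The AG-haESC mean of 7.66 ± 0.29 exceeded the E14 mean of 5.78 ± 0.32 by 1.88 ± 0.26, 3.67-fold, with limma adjusted p = 0.000855. E14 was below MEF (6.97 ± 0.25) by 1.19 ± 0.32 (limma adjusted p = 0.00897), and this call was lost without MEF replicate 1 (adjusted p = 0.0825). AG-haESC minus MEF was 0.69 ± 0.29, with a 95% interval from 0.049 to 1.33, and was not called (limma adjusted p = 0.0664).

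Mkrn3, an intronless gene for a RING finger protein of the makorin family and a brake on puberty in humans, followed another pattern. It was well above background in both kinds of stem cell and near background in MEF. On probe set 1418160_at the AG-haESC lines read 8.18 in AGH-OG-1, 7.58 in AGH-OG-2, 7.73 in AGH-EG-1, 8.53 in AGH-OG-3 and 8.86 in AGH-OG-4. E14 replicates 1 to 3 read 8.60, 8.43 and 8.15, inside the range of the AG-haESC lines. The MEF arrays read 5.82 and 6.19, below all stem cell arrays, and the second alone lay above its own median. AG-haESC (8.17 ± 0.53) exceeded MEF (6.01 ± 0.26) by 2.17 ± 0.34, 4.49-fold (limma adjusted p = 0.000224). E14 (8.39 ± 0.23) exceeded MEF by 2.38 ± 0.37, 5.22-fold (limma adjusted p = 0.00024). AG-haESC minus E14 was -0.22 ± 0.29 with a 95% interval from -0.86 to 0.43 (limma adjusted p = 0.685).

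Magel2, a MAGE family protein that acts with the ubiquitin ligase TRIM27 in endosomal protein recycling, was hardly measured. Probe set 1417217_at read 6.27 in AGH-OG-1, 5.86 in AGH-OG-2, 5.01 in AGH-EG-1, 5.78 in AGH-OG-3 and 5.72 in AGH-OG-4. In E14 replicates 1 to 3 it read 5.93, 6.46 and 6.65, and in MEF 5.56 and 5.22. It lay above the array median in AGH-OG-1 and in E14 replicates 2 and 3, in 3 arrays of 10. None of its differences was called, with limma adjusted p = 0.285 for AG-haESC against E14 and 0.0895 for E14 against MEF.

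Snrpn encodes SmN, a tissue-specific Sm protein of the spliceosome. The 1 probe set that carries its name alone, 1432096_at, was dim and variable. It read 5.98 in AGH-OG-1, 6.76 in AGH-OG-2, 5.90 in AGH-EG-1, 6.51 in AGH-OG-3 and 3.76 in AGH-OG-4. E14 replicates 1 to 3 read 6.46, 5.54 and 6.63 and the MEF arrays 5.22 and 3.50, so that the groups of stem cells overlapped. AG-haESC minus E14 was -0.43 ± 0.67 with a 95% interval from -1.89 to 1.02, wide enough to hold a 2-fold difference either way. Both MEF arrays lay below their medians, so on this probe set a difference from MEF has no measured size. As fitted, AG-haESC minus MEF was not called (limma adjusted p = 0.137) and was called without AGH-OG-4 (adjusted p = 0.014). With signals raised to the array medians it was 0.26 ± 0.24 (adjusted p = 0.402). A further 6 probe sets carry the names Snurf and Snrpn together. They are no members by the rule and their values stand among the closing observations.

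Ube3a encodes the ubiquitin ligase E6-AP. Its 3 bright probe sets were not called in any comparison, with intervals that bound the difference of AG-haESC and E14 to less than 2-fold either way. The brightest, 1416680_at, read 11.11 in AGH-OG-1, 11.81 in AGH-OG-2, 11.90 in AGH-EG-1, 12.18 in AGH-OG-3 and 12.05 in AGH-OG-4. E14 replicates 1 to 3 read 11.58, 10.90 and 11.96 and the MEF arrays 11.63 and 11.59, inside the AG-haESC range but for E14 replicate 2. The difference of AG-haESC minus E14 was 0.33 ± 0.26 with a 95% interval from -0.23 to 0.89 (limma adjusted p = 0.451). On 1416681_at it was -0.21 (interval from -0.65 to 0.24) and on 1416682_at -0.082 (interval from -0.45 to 0.28). Against MEF the same 3 probe sets gave AG-haESC differences from -0.076 to 0.32. On 1416682_at both MEF arrays (7.80 and 8.07) lay below every stem cell array.

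Another Ube3a probe set, 1425206_a_at, behaved differently from the bright ones. It read 6.57, 6.66 and 6.51 in E14 replicates 1 to 3, above the array medians, and below them in every AG-haESC array (4.18 to 5.47) and MEF array (4.52 and 4.87). It thus passed the filter through the E14 arrays alone, the group where it was high, and its p-values carry that selection. On the signals as deposited, AG-haESC minus E14 was called (limma adjusted p = 0.0188), as was E14 minus MEF (limma adjusted p = 0.00716). The size of these differences rests on signals below the medians. With signals below an array median raised to it, E14 was at least 1.54-fold above AG-haESC and at least 1.51-fold above MEF. Neither difference reached 2-fold, so neither was called, though the limma adjusted p was 0.0028 and 0.00257. These p-values rest on the spread of the medians in the raised arrays. The call on the deposited signals against AG-haESC was lost without E14 replicate 1 (adjusted p = 0.0692) or E14 replicate 2 (0.073), and the call against MEF without MEF replicate 1 (0.0507). Probe set 1431224_at lay near the medians and was not called, and 1445727_at was below them in all arrays. The probe sets of Ube3a thus disagreed, and the array does not say which transcript each reads.

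**Figure D4:**
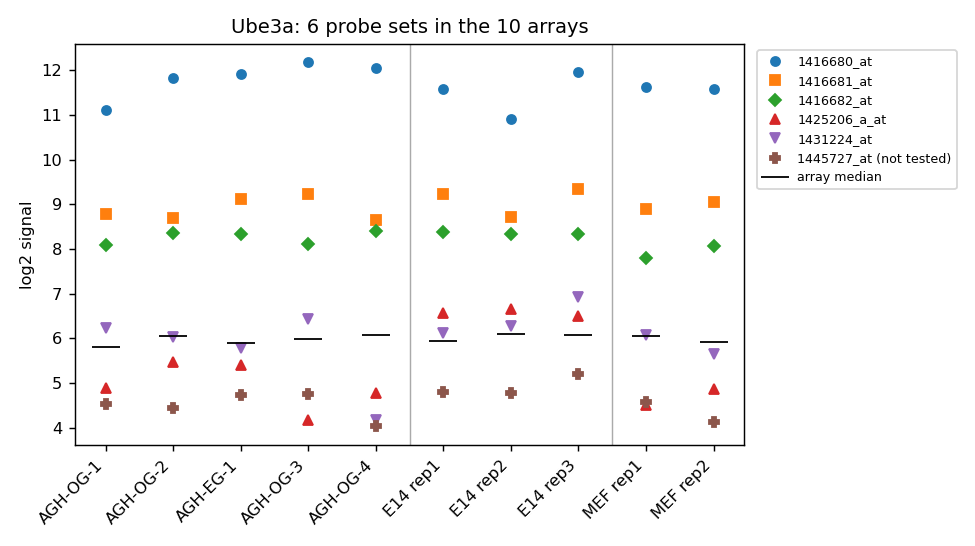
The log2 signal (vertical axis) of the 6 Ube3a probe sets is plotted in each of the 10 arrays, with black dashes for array medians. The 3 bright probe sets stay level across AG-haESC, E14 and MEF within their spread, and 1425206_a_at (red triangles) lies above the medians in the 3 E14 arrays alone.

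**Figure D5:**
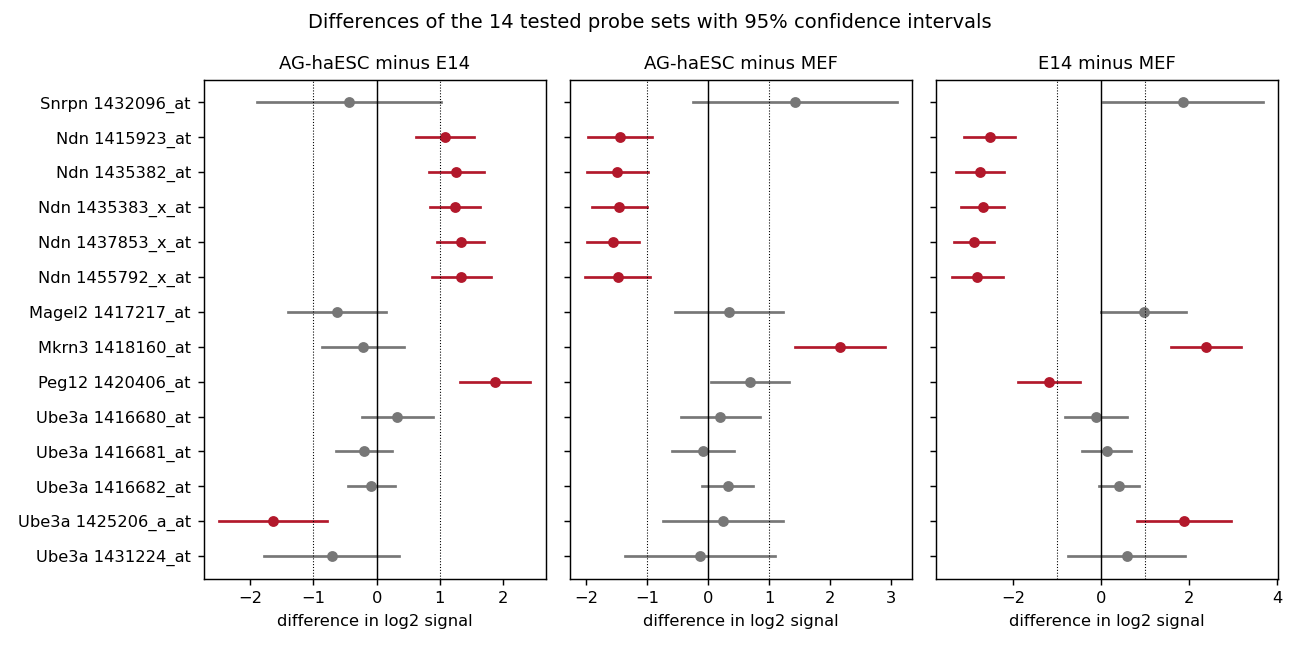
Differences in log2 signal (horizontal axis) with 95% confidence intervals are drawn for the 14 tested probe sets in each of the 3 comparisons, in red where called and in grey where not. Dotted lines mark a 2-fold difference. Ndn is above 0 in AG-haESC minus E14 and below 0 in both comparisons with MEF, and Mkrn3 is above 0 in both comparisons with MEF.

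Genes whose pattern was most like that of a member were found by the root mean square difference of centred log2 signals over the 10 arrays, among 13245 genes. For Ndn they were Pld1, a phospholipase (0.18 log2 units), Prxl2c (0.23) and Msl3 (0.25), where the median gene was at 1.14. For Peg12 they were Car5b, a mitochondrial carbonic anhydrase (0.24), Rp2 (0.26) and Cmtm7 (0.28). For Mkrn3 they were Slc2a1, a glucose transporter (0.28), Cep152, a centrosomal protein (0.28), and Sema4d (0.29). For the dim Snrpn probe set the nearest, Ccne1, a cyclin, was at 0.55, farther than the nearest genes of Ndn, Peg12 and Mkrn3. Of the genes named, Msl3, Car5b and Rp2 lie on chromosome X and the others on autosomes. The share of chromosome X genes among the 13245 compared was not counted, so nothing is read from this. The arrays of a group resemble each other, so the 10 arrays are not 10 independent points.

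Neighbours of the cluster on chromosome 7 that are not known as paternally expressed were examined beside the members. Of 10 listed, 5 were tested, and none was called between AG-haESC and E14 in limma, with a median difference of -0.25. Nipa2, a magnesium transporter gene, differed by 0.010 ± 0.18 (adjusted p = 0.98), the ubiquitin ligase gene Herc2 by -0.31 ± 0.23 (0.415) and Tubgcp5, of the gamma-tubulin complex, by -0.25 ± 0.23 (0.518). Against MEF, 1 of the 5 was lower in AG-haESC and in E14, beside 20% and 19.1% of all probe sets tested. It was Nipa1, chosen after its values were seen, with differences of -2.215 ± 0.22 and -1.70 ± 0.24. The count for E14 was 2 without E14 replicate 3.

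Among relatives of Ndn and Magel2 in the MAGE family, 2 of 5 tested were higher in AG-haESC than in E14, and none was lower. Of all probe sets tested, 4.37% were called higher and 2.89% lower. Maged1, Maged2, Mageh1 and Magee1 lie on chromosome X and Nsmce3 on chromosome 7. Magee1 (0.98 ± 0.40), Mageh1 (-0.041 ± 0.15) and Nsmce3 (-0.086 ± 0.13) were not called. Whether the chromosome plays a part was not tested. Maged1 was at 11.81 against 10.80, a difference of 1.01 ± 0.21 (limma adjusted p = 0.00942), and Maged2 at 9.39 against 8.06, a difference of 1.33 ± 0.14 (limma adjusted p = 0.000151). The count was 1 without AGH-OG-1, AGH-OG-3, AGH-OG-4 or E14 replicate 3, and also with array weights, a pseudocount of 32 or quantile normalization. Of the same 5, 3 were lower in AG-haESC than in MEF and 4 lower in E14 than in MEF. Over all probe sets tested 20% and 19.1% were called lower in these comparisons. Maged2 was lower than in MEF in both, by differences of -2.34 ± 0.16 and -3.68 ± 0.18.

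Other relatives and partners of the members were not called between AG-haESC and E14 in limma. Of 7 Sm core proteins, 5 were tested. Snrpe differed by 0.078 ± 0.085, Snrpg by -0.15 ± 0.080 and Snrpb, the closest relative of Snrpn, by 0.32 ± 0.097 (adjusted p = 0.0505). Of 6 relatives of Mkrn3, Peg12 and Ube3a, 5 were tested. Mkrn1, a makorin, differed by -0.42 ± 0.16 between AG-haESC and E14, and was higher in both than in MEF, by 3.99 ± 0.18 and 4.40 ± 0.20. Mkrn2 differed by -0.11 ± 0.17 and Ube3c by -0.14 ± 0.16. Of 6 partners of the MAGEL2 and UBE3A proteins 5 were tested, and the retromer gene Vps35 differed by -0.096 ± 0.13, the deubiquitinase gene Usp7 by 0.025 ± 0.15 and Trim27 by -0.26 ± 0.18.

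Of 8 genes that maintain imprints 1 was called, Dppa3, which protects DNA methylation in the early embryo. It was higher in AG-haESC than in E14 by 1.83 ± 0.35 (limma adjusted p = 0.0062), where 4.37% of all probe sets tested were called higher. The count was 2 without E14 replicate 3. Against MEF, 5 of the 8 were higher in AG-haESC and 4 in E14, beside 19.2% and 19.8% of all probe sets tested. All 8 stem cell markers tested were higher in both stem cell groups than in MEF, where Pou5f1 and Nanog lay below the array median. Between AG-haESC and E14, Zfp42 was lower by a difference of -1.56 ± 0.39 (limma adjusted p = 0.0244) and no other stem cell marker was called. Nanog differed by 0.87 ± 0.12 (limma adjusted p = 0.000962), less than 2-fold, and Pou5f1 was at 13.55 and 13.52.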

How the data were processed

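Total RNA of 10 samples was hybridised to Affymetrix GeneChip arrays. The deposited table holds a signal intensity for each probe set, and per the submitters' processing notes the authors used MAS5. The 2% trimmed mean was 500.0 in every array, so levels are relative within an array and a change in total RNA per cell cannot be seen. No source used here names the MAS5 version, and no detection calls were used. Of 45101 probe sets 64 controls were left out, 34945 pair with 1 symbol, 932 with several and 9160 with none listed.

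Log2 signals were fitted with limma 3.58.1 in R 4.3.3, in 1 fit of 3 group means over 10 arrays with 7 residual degrees of freedom, using two-sided moderated tests with an intensity trend. Groups came from the sample titles, and AG-haESC replicates 1 to 5 are AGH-OG-1, AGH-OG-2, AGH-EG-1, AGH-OG-3 and AGH-OG-4. Standard errors and intervals are those of the fit. The number of arrays limits the precision, and E14 spreads hold no difference between diploid lines. A gene of a list stands for its brightest tested probe set. For a group below the median in all its arrays, those medians stand in for its level and the fold is a lower bound. All members were named, and list genes by a call between AG-haESC and E14 or else the 3 brightest. All tested MAGE relatives were named, to give their chromosomes. Nearest genes were named for members whose group means span more than 1 log2 unit. The members and lists were chosen with earlier results of these data known. Alternatives covered the filter, scaling, pseudocount, floor, prior, array weights, samples in the fit, probe set summary and each array left out. Promoters were read from a RefSeq table, in which all 6 genes matched by symbol. Figures were drawn with matplotlib 3.10.9.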

Additional observations from a re-analysis of the deposited data

Results flagged for a closer look

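Among the 18 member probe sets, 3 had an AG-haESC array far from the other 4, by the gap to its nearest neighbour over the whole range of the group, against Dixon's critical value of 0.71 for 5 arrays. All 3 arrays were AGH-OG-4. On Snrpn probe set 1432096_at AGH-OG-4 read 3.76 log2 units, with the nearest line at 5.90 and a ratio of 0.712. On Ube3a probe set 1431224_at it read 4.16, with the nearest at 5.79 and a ratio of 0.719. On Ndn probe set 1438978_x_at, which was not tested, it read -0.92, with the nearest at 3.40 and a ratio of 0.798. Each of these values lies below the array median. Chance flags about 1 in 20 groups, and 18 were examined. On the bright Ndn and Ube3a probe sets AGH-OG-4 was not set apart in this way.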

How the results depend on the processing

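Of 21 member differences that were called, 16 kept their call under every alternative that was run, and no called difference changed its sign under any. Most of both counts come from the 5 bright Ndn probe sets, all called in each of the 3 comparisons. They read 1 transcript in shared arrays, so these are not counts of independent results. Of 317 alternative values of the differences that were not called, 10 had the opposite sign. The counts of imprint maintenance genes higher in AG-haESC than in E14 and of chromosome 7 neighbours lower in E14 than in MEF were 2 with array weights in place of 1. With array weights, 3321 probe sets were called between AG-haESC and E14 in place of 1997, and Ndn 1415923_at and 1455792_x_at differed by 0.89 and 0.997, just under 2-fold. With signals raised to the array median, no member was called lower in AG-haESC than in E14 (count 0) and 1 was higher in E14 than in MEF, since Ube3a 1425206_a_at then differed by -0.63 and 0.60, and Peg12 between E14 and MEF by -0.92. That last difference was -0.85 with a pseudocount of 32. When 1 array was left out, the members called in AG-haESC minus E14 numbered 5 to 6 higher and 0 to 1 lower, in AG-haESC minus MEF 1 to 2 higher and 5 lower, and in E14 minus MEF 1 to 2 higher and 5 to 6 lower. With 1 MEF array left, that array is assumed to vary like the other groups. Over all probe sets these counts ran from 1516 to 2593, from 8820 to 10732 and from 8611 to 10487. The E14 and MEF labels share replicate numbers 1 and 2, which nothing ties to a common origin, and the deviations of same-numbered arrays correlated at -0.022. With the replicate block, 5 members were lower and 2 higher in E14 than in MEF, 10767 probe sets were called in place of 10688, and Peg12 (-1.03, adjusted p = 0.094) was not. Signals near the array medians, as for Magel2, Snrpn 1432096_at, Peg12 in E14 and Mkrn3 in MEF, set the limit of what these arrays can resolve.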

Other observations

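Snurf and Snrpn are read from 1 bicistronic transcript, and 6 probe sets carry both names. A probe set on that transcript reads Snrpn as well as Snurf, so the values are given for the pair. Of the 6 probe sets, 4 lay above the median in all 10 arrays. Their group means ran from 10.90 to 11.66 log2 units in AG-haESC, 10.56 to 11.36 in E14 and 8.51 to 10.12 in MEF. Their differences of AG-haESC minus E14 lay between 0.23 and 0.49 and were not called (limma adjusted p from 0.305 to 0.606). Both stem cell groups were higher than MEF on all 4, AG-haESC by 1.54 to 2.54 (limma adjusted p from 6.03e-05 to 0.000291) and E14 by 1.25 to 2.05 (from 0.000639 to 0.00229).

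The fifth, 1441905_x_at, stood apart from these 4. It read between 6.46 and 7.82 in the AG-haESC lines, above every one of their array medians, and between -0.26 and 1.42 in E14 and 0.78 and 2.53 in MEF, far below the medians. It passed the filter through the AG-haESC arrays alone, the group where it was high. On the signals as deposited it was called higher in AG-haESC than in E14 (limma adjusted p = 0.000181) and than in MEF (limma adjusted p = 0.000126). These p-values carry that selection and rest on E14 and MEF signals far below background. With E14 and MEF put at their array medians, AG-haESC was at least 2.06-fold above E14 and at least 2.13-fold above MEF, and these bounds were not tested. The sixth, 1460075_x_at, lay below the median in all arrays.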
